A study of Homo sapiens with 16 samples.

Results

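The genes described here are the sensor ERN1 (encoding IRE1α), its substrate XBP1, the RNA ligase RTCB with its partner subunits DDX1, FAM98B, ZBTB8OS (archease) and RTRAF, the RNA cyclase RTCA, and TRAF2, the adaptor that binds activated IRE1α. They are 9 of the 58051 genes in the count table. The rule that chose them used their known place in one pathway and no measured value, although earlier results of these data were known by then. All 9 passed the filter on low counts. RNA came from LNCaP, a line of human prostate cancer cells, and each of the 4 groups had 4 libraries in a pair of experiments. In the first, cells were reverse-transfected with a nontargeting Allstar control siRNA (siCtrl) or with a single XBP1 siRNA product (siXBP1) and kept for 2 days. In the second, cells received DMSO (Vehicle) or 10 µM MKC8866, an inhibitor of the IRE1α RNase, for 24 h. Before harvest, every sample also received thapsigargin (TG, 30 nM, 3 h), which blocks the calcium pump of the ER, so that controls and treated cells alike were under ER stress, and no library came from unstressed cells. The model is thus 1 cell line, 1 siRNA product and 1 inhibitor dose.

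IRE1α is a transmembrane kinase and RNase of the ER that oligomerizes when unfolded proteins accumulate. Its RNase cuts XBP1 mRNA at a pair of stem-loops, and RTCB joins the exon ends without the spliceosome, which shifts the reading frame and yields the active transcription factor XBP1s. The same ligase joins the ends of tRNAs after their introns are removed. DDX1, FAM98B and RTRAF are stable subunits of the ligase complex and ZBTB8OS is a cofactor that keeps RTCB turning over, while RTCA converts RNA 3′ ends to cyclic phosphates and can thereby oppose XBP1 ligation. TRAF2 links the kinase side of IRE1α to JNK and NF-κB signaling.

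The sequence on which IRE1α and RTCB act lies in exon 4 of XBP1 (ENSG00000100219), at chr22:28796127-28796152 of GRCh38 on the minus strand. It is shown with 17 flanking bases on each side, and capitals mark the 26 bases that are removed.

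XBP1 intron, chr22:28796110-28796169: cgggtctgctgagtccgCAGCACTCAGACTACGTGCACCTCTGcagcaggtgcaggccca

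Both ends of the removed stretch carry the IRE1α consensus CNGCAGC, as CCGCAGC upstream and CTGCAGC downstream. These were the only 2 matches on the sense strand in the 6043 bases of the XBP1 gene. The stretch is coding in 3 annotated transcripts, and 1 other is annotated without it, in an alignment placed 1 base away that leaves the same letters. A length of 26 bases leaves a remainder of 2 when divided by 3, which is the frame shift of splicing. The stretch makes up 0.859% of the exon bases over which XBP1 was counted, so a gene count cannot tell the spliced from the unspliced form. Every XBP1 value below is the total of both, and reads across the junction were not analysed here.

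The 250 bases before the RefSeq start sites (GRCh38.p14) were searched on both strands for ER stress elements, since 7 of these 9 genes were lower in 1 comparison below. All 9 genes were matched to at least 1 start site. XBP1 was the only one with the ER stress response element ERSE, spelled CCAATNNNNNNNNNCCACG, which binds NF-Y and ATF6 and lay between 52 and 34 bases before the start. It occurred in 26 of 35116 promoters (0.074%). The element is in capitals in the sequence before the XBP1 start.

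XBP1 upstream, minus strand of chr22:28800570-28800819: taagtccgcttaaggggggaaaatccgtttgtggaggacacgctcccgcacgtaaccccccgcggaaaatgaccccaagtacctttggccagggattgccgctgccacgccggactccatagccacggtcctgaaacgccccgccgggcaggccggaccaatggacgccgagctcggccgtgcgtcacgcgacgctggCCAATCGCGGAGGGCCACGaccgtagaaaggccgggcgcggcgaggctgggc

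None of the 9 matched ERSE-II (ATTGGNCCACG, in 0.0513% of promoters) or the core TGACGTG of the unfolded protein response element (in 1.683%). RTRAF held GCCACGT, a box found in 2.779% of promoters, on the opposite strand. GCCACGT shares its CCACG with the end of ERSE.

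Between 28713607 and 34509488 fragments were counted per library. The defining luminal genes of LNCaP were present, with KLK3 between 341 and 945 CPM (counts scaled to the normalized library size) and KRT8 between 416 and 482 CPM, whereas KRT5 and TP63 of basal cells, PTPRC of leukocytes and PECAM1 of endothelium stayed below 1 CPM in all 16 libraries. KRT14, another basal keratin, was at 0.355 to 1.19 CPM. COL1A1 was at 24.7 to 36.5 CPM. The summed level of 6 luminal markers (KLK3, KLK2, TMPRSS2, FOLH1, KRT8 and KRT18) was 2752 to 2888 CPM in siCtrl, 2211 to 2379 in siXBP1, 2866 to 3018 in Vehicle and 3138 to 3268.5 in MKC8866, so that the sum was lower in siXBP1 and higher in MKC8866 than in its control. The 6 genes did not move as one. After knockdown 4 were lower and FOLH1 and KRT8 did not pass the test. With MKC8866, KLK3 (652 to 898 CPM) was higher, KRT18 was lower (264 to 226 CPM) and the other 4 did not pass. The part of these markers in the results below was not tested. In bulk RNA, fewer cells of a type and less RNA per cell cannot be told apart. The labels do not say that replicates came from separate cultures, so p-values measure the spread between these samples, which may be technical.

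XBP1 knockdown was compared with its control siRNA to ask whether the machinery upstream of XBP1 changes with the loss of its substrate. After knockdown, 7 of the 9 genes were lower and none was higher, where 18.2% of the 21021 genes tested were lower and 16.5% were higher. At an unadjusted p under 0.05, and with DESeq2, none was higher either. The genes that passed an adjusted p of 0.05 in edgeR's quasi-likelihood test were XBP1 itself, the ligase RTCB, and, with smaller falls, ERN1, TRAF2, RTCA, ZBTB8OS and DDX1. FAM98B and RTRAF did not pass. XBP1 was the target of the siRNA, so its fall was set by the design and adds nothing to the count. The calls of DDX1 and ZBTB8OS were lost in some of the alternatives given below. The median log2 fold change of the 9 genes was −0.19, against 0.00 over all genes tested.

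MKC8866 was compared with Vehicle to ask the same when the RNase is blocked and XBP1 mRNA is left in place. Here 2 of the 9 genes were higher, ERN1 and XBP1, and none was lower, where 1.36% of 21045 genes were higher and 3.11% lower. At an unadjusted p under 0.05 in edgeR, 2 were lower (RTCA and ZBTB8OS), and DESeq2 called 1 of them, ZBTB8OS, lower. The median of the 9 was −0.06, against 0.00 over all genes. No label states that replicate numbers pair the libraries, but same-numbered libraries of this experiment deviated together. Some differently numbered ones did too. A fit blocked on the replicate numbers called ZBTB8OS and RTCA lower as well. In that fit 7.05% of all genes were lower, and 1262 of 21045 were higher.

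**Figure D1:**
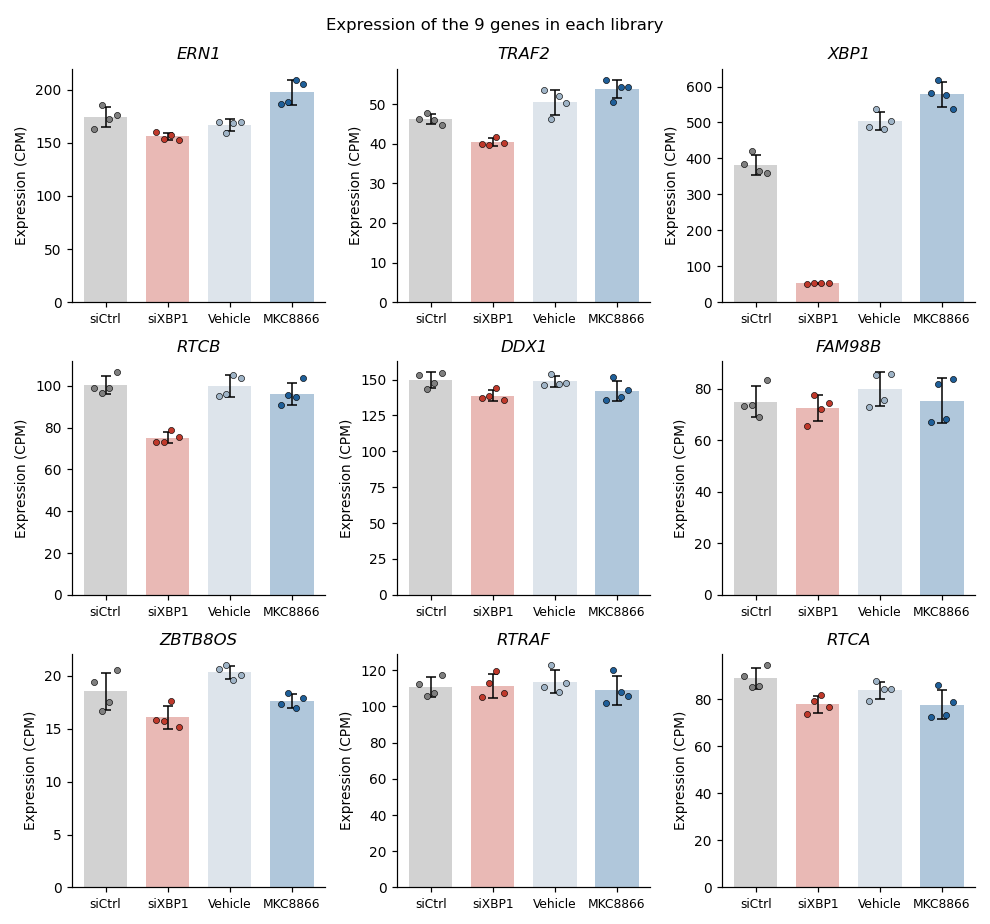
Expression of the 9 genes in CPM (vertical axis of each panel, from 0) in siCtrl, siXBP1, Vehicle and MKC8866. Points are libraries in replicate order, bars are means and error bars are SD (n = 4). XBP1 fell to 51.2 to 54.2 CPM in siXBP1, RTCB lay at 73.2 to 78.8 CPM there, and ERN1 was highest in MKC8866.

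ERN1 (ENSG00000178607, chr17:64039142-64130819, minus strand) encodes the sensor and RNase. In siCtrl it was at 163, 185, 172 and 177 CPM in replicates 1 to 4, and in siXBP1 at 159.9, 153, 158 and 153 CPM. All siXBP1 libraries lay below all siCtrl libraries, although the nearest pair was only a few CPM apart. The fall was small, −0.16 ± 0.042 (SE) on the log2 scale (adjusted p = 0.00445 in edgeR).

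With the inhibitor ERN1 moved the other way. Vehicle libraries had 169.8, 159.0, 168 and 170.0 CPM and MKC8866 libraries 187, 188, 209 and 206 CPM. The groups did not overlap, and the means were 167 ± 5.25 and 198 ± 11.7 CPM (SD, n = 4). The log2 fold change was 0.25 ± 0.044 (SE, adjusted p = 0.000618 in edgeR), larger in size than that of 78.9% of the genes tested. The order of the 4 groups was MKC8866, siCtrl, Vehicle and siXBP1. Only MKC8866 stood apart from its neighbour in that order, since siCtrl overlapped Vehicle and Vehicle overlapped siXBP1. ERN2, the paralogue that encodes IRE1β in mucosal epithelia, had 0 to 2 counts in every library, so ERN1 accounted for nearly all IRE1 mRNA counted in these cells.

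TRAF2 (ENSG00000127191, chr9:136881912-136926607, plus strand) is the adaptor on the kinase side. It measured 46.1, 47.9, 45.9 and 44.8 CPM in siCtrl and 40.0, 39.5, 41.7 and 40.2 CPM in siXBP1. The siXBP1 libraries were below every control, by −0.19 ± 0.046 (SE) on the log2 scale (adjusted p = 0.00218 in edgeR). In Vehicle it was at 53.5, 46.2, 52.0 and 50.3 CPM and in MKC8866 at 56.1, 50.6, 54.3 and 54.3 CPM. These groups overlapped, and the log2 fold change of 0.09 did not pass the test (adjusted p = 0.414 in edgeR), although the MKC8866 library was the higher in 4 of 4 pairs of the same number.

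XBP1 (chr22:28794555-28800597, minus strand) was the target of the siRNA. Its libraries had 385, 421, 366 and 359 CPM in siCtrl and 51.2, 54.2, 54.1 and 53.2 CPM in siXBP1, a log2 fold change with a 95% confidence interval of −2.95 to −2.74. The 4 siXBP1 libraries lay close together, with a coefficient of variation of 2.63%, and still held 1483 to 1749 XBP1 fragments each. About 0.139 of the control level thus remained. Among the genes tested, 99.99% changed less in size.

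In the inhibitor experiment XBP1 was at 488, 539, 482 and 503 CPM in Vehicle and at 583, 619, 575 and 536 CPM in MKC8866. The lowest MKC8866 library, replicate 4, fell just under the highest Vehicle library, replicate 2, so the groups overlapped. Against the Vehicle library of its own number each MKC8866 library was higher, by 0.26, 0.20, 0.25 and 0.09 on the log2 scale, and XBP1 was called higher with and without the replicate block. Within a library, the ratio of XBP1 to ERN1 counts was 2.20 ± 0.147 in siCtrl, 0.341 ± 0.0146 in siXBP1, 3.02 ± 0.248 in Vehicle and 2.94 ± 0.319 in MKC8866 (SD, n = 4). In the inhibitor experiment this ratio differed by less than the spread between libraries, while both genes rose.

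RTCB (ENSG00000100220, chr22:32387582-32412255, minus strand) is the catalytic ligase. It was at 98.9, 96.8, 98.98 and 106 CPM in siCtrl and at 73.2, 73.3, 78.8 and 75.3 CPM in siXBP1. Every siXBP1 library was well below every control, with means of 100.3 ± 4.25 and 75.2 ± 2.64 CPM (SD, n = 4). The log2 fold change of −0.42 ± 0.045 (SE, adjusted p = 1.27e-07 in edgeR) exceeded in size that of 76.0% of the genes tested and was the largest of the 8 genes that the siRNA did not target.

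No such fall was seen with the inhibitor. RTCB was at 94.9, 96.2, 105 and 104 CPM in Vehicle and at 90.6, 95.4, 94.6 and 104 CPM in MKC8866. The groups overlapped over most of their range, and the log2 fold change was −0.06 with a 95% confidence interval of −0.15 to 0.04 (adjusted p = 0.664 in edgeR). A fall as large as that after knockdown lies outside this interval.

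The subunits that hold RTCB in its complex did not follow it to the same extent. DDX1 (ENSG00000079785, chr2:15591178-15631111), a DEAD-box helicase, was at 153, 143, 148 and 155 CPM in siCtrl and at 137, 138, 144 and 136 CPM in siXBP1. The groups overlapped by 1 library on each side, and the log2 fold change of −0.11 passed narrowly (adjusted p = 0.0416 in edgeR). The DDX1 call was lost without siCtrl replicate 1, 3 or 4 (adjusted p = 0.113, 0.065 and 0.162), without siXBP1 replicate 1, 2 or 4 (0.105, 0.107 and 0.142), with other size factors (0.0504), without the filter on low counts (0.0945) and with the replicate block (0.0533).

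FAM98B (ENSG00000171262, chr15:38454127-38487710) ranged from 69.2 to 83.6 CPM in siCtrl and from 65.6 to 77.5 CPM in siXBP1, a log2 fold change of −0.05 (95% confidence interval −0.17 to 0.07). RTRAF (ENSG00000087302, chr14:51989475-52010691), also known as hCLE, ranged from 106 to 117 CPM and from 105 to 119 CPM, a log2 fold change of 0.01 (95% confidence interval −0.09 to 0.11). Neither passed the test after knockdown or with MKC8866, and for both the groups overlapped. RTRAF shares 1915 exon bases, 23.0% of its length, with NID2 on the other strand, and fragments there were counted for neither gene. NID2 itself had 4 to 15 counts.

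ZBTB8OS (ENSG00000176261, chr1:32600172-32650903), the archease cofactor, was the weakest of the 9 genes. It was at 19.4, 16.7, 17.5 and 20.6 CPM in siCtrl and at 15.8, 15.7, 17.6 and 15.1 CPM in siXBP1. The groups overlapped, and the log2 fold change was −0.21 ± 0.074 (SE, adjusted p = 0.0325 in edgeR). That call was lost without siCtrl replicate 1 or 4 (adjusted p = 0.0918 and 0.158) and without siXBP1 replicate 1, 2 or 4 (0.0787, 0.0889 and 0.117).

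In the inhibitor experiment the ZBTB8OS groups did not overlap. Vehicle libraries were at 20.6, 21.02, 19.6 and 20.1 CPM and MKC8866 libraries at 17.3, 18.4, 16.9 and 17.9 CPM. The log2 fold change of −0.20 ± 0.059 (SE) was just short of the threshold (adjusted p = 0.0521 in edgeR) and passed with the replicate block (adjusted p = 0.00504) and without MKC8866 replicate 2 (0.031). ZBTB8OS shares 179 exon bases (5.07% of its length) with ZBTB8A on the opposite strand, which fell in both comparisons (log2 fold changes −0.32 and −0.50, adjusted p = 0.0186 and 0.000454 in edgeR). Fragments on the shared bases were counted for neither gene. Whether the changes of both genes are linked was not tested.

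Because library scaling cancels in a ratio of counts from the same library, RTCB was also set against each partner subunit, a test chosen after the values were seen. After knockdown the ratio of RTCB to DDX1 counts went from 0.670 to 0.541 (geometric means), a log2 difference of −0.31 ± 0.025 (SE). The log2 differences were −0.37 ± 0.065 against FAM98B, −0.42 ± 0.031 against RTRAF and −0.21 ± 0.056 against ZBTB8OS. In each of these 4 ratios all siXBP1 libraries were below all siCtrl libraries. Each gave the smallest p that 4 against 4 libraries allow (two-sided exact permutation test, p = 0.0286). After Benjamini-Hochberg adjustment over 8 ratio tests that p was 0.0571, so none of the ratios passed the threshold on adjusted p. All 4 ratios hold the same RTCB counts from the same libraries, so they are not separate lines of evidence. With MKC8866 the same 4 log2 differences lay between 0.00 and 0.15 and the groups overlapped (exact permutation p = 0.114 to 0.943, adjusted 0.183 to 0.943).

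RTCA (ENSG00000137996, chr1:100266207-100292769, plus strand), the cyclase, was at 90.1, 85.2, 85.9 and 94.7 CPM in siCtrl and at 73.7, 79.3, 82.0 and 76.8 CPM in siXBP1. The groups did not overlap, and the log2 fold change was −0.19 ± 0.047 (SE, adjusted p = 0.00269 in edgeR). The cyclase and the ligase thus both fell, but not equally, since the ratio of RTCA to RTCB counts was 0.887 ± 0.0179 in siCtrl and 1.04 ± 0.0326 in siXBP1 (SD, n = 4).

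With MKC8866, RTCA was at 72.5, 86.0, 73.5 and 79.0 CPM, against 79.2, 87.8, 84.3 and 84.4 CPM in Vehicle. The groups overlapped because replicate 2 was the highest library of both. Each MKC8866 library was below the Vehicle library of its number, by log2 ratios of −0.13, −0.03, −0.20 and −0.10. The log2 fold change of −0.11 had an adjusted p of 0.322 in edgeR, which became 0.0141 with the replicate block and 0.038 without MKC8866 replicate 2, where the log2 fold change was −0.16.

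**Figure D2:**
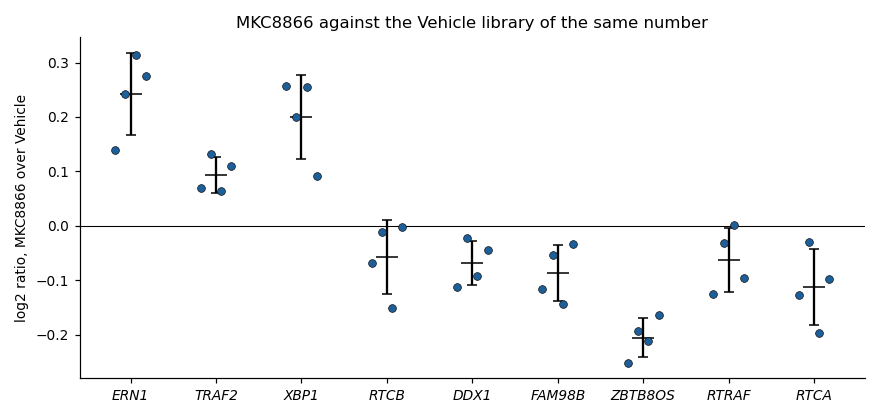
Log2 ratio of CPM (vertical axis) between each MKC8866 library and the Vehicle library of the same replicate number, for the 9 genes. Points are the 4 pairs in replicate order, and bars give the mean and SD of the 4 log2 ratios. ERN1, XBP1 and TRAF2 were above 0 in 4 of 4 pairs, and RTCB, DDX1, FAM98B, ZBTB8OS and RTCA were below 0 in 4 of 4. Some ratios lay near 0, such as −0.012 and −0.002 for RTCB. RTCB, DDX1, FAM98B and TRAF2 were not called with MKC8866 in any alternative. The share of all genes with 4 of 4 pairs on one side was not computed.

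The responses to the 2 treatments were then compared directly, as the knockdown log2 fold change minus that of MKC8866 in a fit of all 16 libraries. For 4 of the 9 genes the difference was negative and passed the test, and for none was it positive (also at an unadjusted p under 0.05 and with DESeq2), where 12.7% of 20357 genes passed as negative and 10.6% as positive. These were XBP1, ERN1, RTCB and TRAF2, and for XBP1, the target of the siRNA, the difference was set by the design. The difference was −3.05 for XBP1 (95% confidence interval −3.19 to −2.91), −0.40 for ERN1 (−0.53 to −0.28, adjusted p = 9.06e-06 in edgeR), −0.36 for RTCB (−0.49 to −0.22, adjusted p = 0.000122) and −0.29 for TRAF2 (−0.42 to −0.15, adjusted p = 0.00216).

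For ERN1 the log2 fold changes had opposite signs and each passed its own test. For RTCB and TRAF2 only the knockdown passed. The other 5 genes gave no call, and the 95% confidence intervals of their differences were −0.23 to 0.07 for RTCA, −0.16 to 0.08 for DDX1, −0.17 to 0.23 for FAM98B, −0.19 to 0.19 for ZBTB8OS and −0.08 to 0.22 for RTRAF. The experiments had separate controls and different pretreatments, so the kind of inhibition and the experiment cannot be told apart in these differences.

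**Figure D3:**
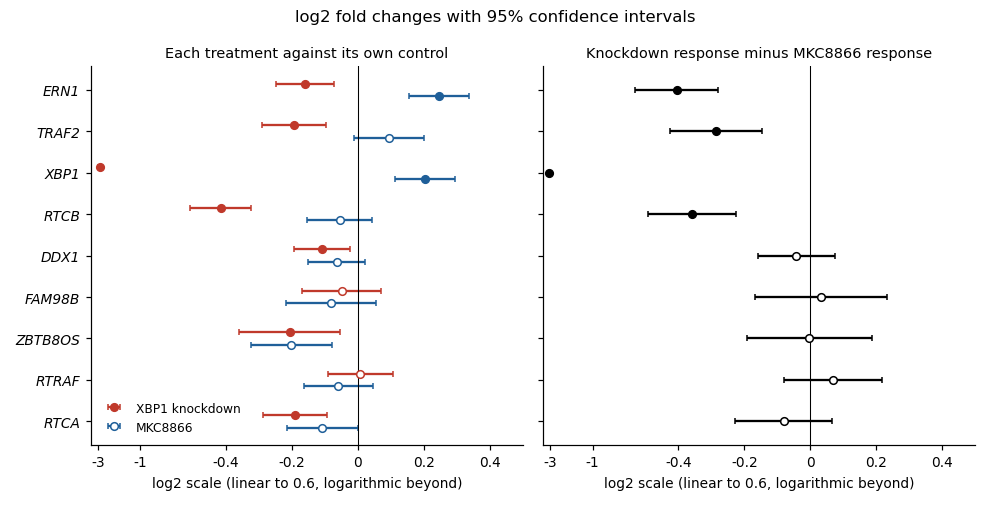
Log2 fold changes of the 9 genes (horizontal axis, linear between −0.6 and 0.6 and logarithmic beyond) after XBP1 knockdown and with MKC8866, each against its own control (left), and the difference between these responses (right). Bars are 95% confidence intervals and filled symbols passed an adjusted p of 0.05 in edgeR. ERN1 lies on opposite sides of 0 on the left, and ERN1, TRAF2, XBP1 and RTCB are filled on the right.

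Divided by exon length, so that genes can be compared with each other, XBP1 was the most abundant of the 9 in siCtrl with 126 ± 9.24 CPM per kb (SD, n = 4). It was followed by DDX1 (39.1), RTCB (34.0), RTCA (29.3), ERN1 (16.0), RTRAF (13.3), TRAF2 (12.6), FAM98B (10.9) and ZBTB8OS (5.25). Neighbours in this order did not overlap, except RTRAF and TRAF2. The order rests on the length of all annotated exons of a gene, since the transcripts expressed were not determined. For RTRAF and ZBTB8OS that length includes bases shared with another gene (23.0% and 5.07%). Fragments there were not counted, so these levels per kb are understated. Over all 16 libraries XBP1 lay above 98.4% of the 15037 genes with at least 1 CPM, RTCB above 89.4%, ERN1 above 76.6% and ZBTB8OS above 45.0%.

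Knockdown changed the order. In siXBP1, DDX1 came first with 36.2 CPM per kb, RTCA (25.7) and RTCB (25.5) overlapped, and XBP1 came after them with 17.6 CPM per kb, still above ERN1 at 14.4. In Vehicle and in MKC8866 the first 5 genes kept the siCtrl order, with XBP1 at 166.2 and 191 CPM per kb. Among the ligase subunits DDX1 was the most abundant per length in all 4 groups and ZBTB8OS the least.

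**Figure D4:**
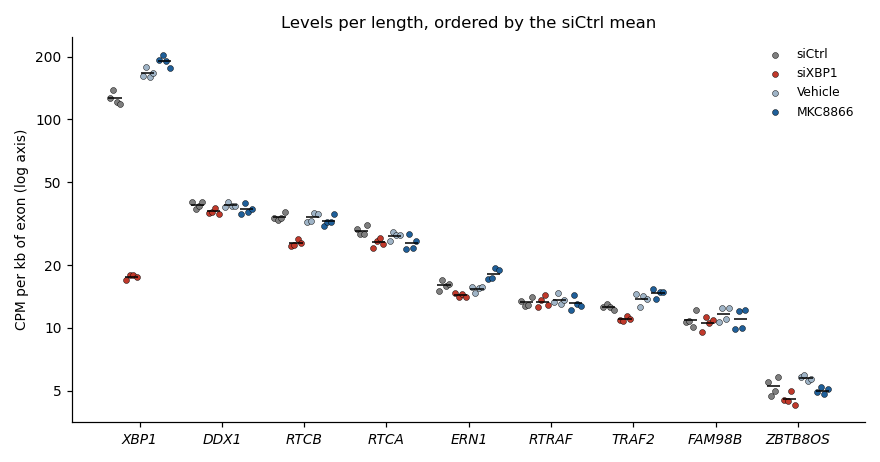
Level of each gene per exon length, in CPM per kb (vertical log axis), in the 4 libraries of each group, with genes ordered by the siCtrl mean and black lines at group means. XBP1 stands above the other genes in siCtrl, Vehicle and MKC8866 and falls among RTCB, RTCA and ERN1 in siXBP1.

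The genes whose log2 CPM followed a member most closely over the 16 libraries are given as a description, since all points share the same libraries and fall into 4 treatment groups. XBP1 was followed most closely by LRRC8B (Pearson's r = 0.994), SINHCAF (0.993) and ASAP1 (0.992). LRRC8B, a subunit of volume-regulated anion channels, had group means of 72.3, 33.4, 84.2 and 88.2 CPM in siCtrl, siXBP1, Vehicle and MKC8866. RTCB was followed by MTHFD1 (0.964), a folate enzyme, RRBP1 (0.963), a ribosome-binding protein of the ER, and CLCC1 (0.963). FITM2 (0.946), which acts in lipid droplet formation at the ER, was among the 3 genes closest to ERN1.

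Genes whose products bind or regulate IRE1α were counted next, in a list chosen with earlier results of these data known. Of 20 tested from a list of 21, 11 were lower and 4 higher after knockdown, where 18.2% and 16.5% of all genes were, and 7 were lower and none higher with MKC8866, where 3.11% and 1.36% were. At an unadjusted p under 0.05, 1 was higher with MKC8866 in edgeR, and DESeq2 called none. The median log2 fold changes of the list were −0.22 and −0.03. Whether its genes fell because they depend on XBP1s was not tested, so the counts are not a result about regulation of IRE1α. DNAJB9, the ER cochaperone ERdj4 that returns BiP to IRE1α, fell most. Its group means were 227 CPM in siCtrl, 45.7 in siXBP1, 181 in Vehicle and 49.4 in MKC8866 (log2 fold changes −2.31 and −1.87, adjusted p = 4.11e-19 and 9.75e-17 in edgeR). SYVN1, the ubiquitin ligase that degrades IRE1α with SEL1L, fell by 1.45 and 1.14 on the log2 scale. SEL1L fell by 0.22 and 0.33. SEC61A1 and SEC63, the translocon subunit and its partner that bind IRE1α, fell by 0.76 and 0.49 after knockdown and by 0.52 and 0.35 with MKC8866.

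HSPA5, which encodes BiP, the chaperone that holds IRE1α inactive, moved in opposite directions. It rose after knockdown from 3827 to 4706 CPM (log2 fold change 0.30, adjusted p = 1.69e-05 in edgeR) and fell from 3801 to 3427 CPM with MKC8866 (−0.15, adjusted p = 0.00476), and the responses differed (0.45, adjusted p = 6.08e-07). BAX, a proapoptotic protein that also binds IRE1α, rose after knockdown (0.52, adjusted p = 1.94e-08 in edgeR), and TMEM33, an ER membrane protein that enhances IRE1α signaling, fell (−0.52, adjusted p = 1.74e-07). With MKC8866, BAX (−0.03) and TMEM33 (0.07) did not pass, and both differed between the treatments (adjusted p = 2.29e-07 and 7.61e-07). With the replicate block more than 7 of the 20 were lower with MKC8866, where 7.05% of all genes were. In that fit 1 of the 20 was higher, a share near that of all genes (1262 of 21045).

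A list of genes around and downstream of TRAF2 (the TRAF2 branch), which includes other TRAF adaptors, had no common direction after knockdown. Of its 23 genes, 6 were lower and 7 higher after knockdown, where 18.2% and 16.5% of all genes were, and the median log2 fold change was 0.00. With MKC8866 none was lower and 3 were higher, where 3.11% and 1.36% of all genes were, and the median was 0.01. The replicate block gave 1 lower and 6 higher, where 7.05% of all genes were lower and 1262 of 21045 higher. At an unadjusted p under 0.05 in edgeR 1 was lower with MKC8866, and DESeq2 called 1 lower. BIRC3, the ubiquitin ligase cIAP2 that binds TRAF2, fell from 52.5 to 26.04 CPM after knockdown (log2 fold change −1.01, adjusted p = 1.18e-12 in edgeR). It was 47.6 CPM in Vehicle and 53.9 CPM in MKC8866, a log2 fold change of 0.18 (adjusted p = 0.0273) whose call was lost without Vehicle replicate 1, 3 or 4 (0.0742, 0.13 and 0.0581) or MKC8866 replicate 1 or 4 (0.126 and 0.0545). BIRC2, its paralogue, fell by 0.56 after knockdown. TRAF3, an adaptor that competes with TRAF2 in NF-κB signaling, rose with MKC8866 (0.33, adjusted p = 8.8e-06 in edgeR), and JUN, the transcription factor phosphorylated by JNK, rose in both comparisons (0.18 after knockdown and 0.27 with MKC8866, adjusted p = 0.00533 and 0.00076 in edgeR), and its responses did not pass the test of their difference (adjusted p = 0.421). TRAF1, TRAF5 and MAPK10 changed after knockdown (−0.79, 0.67 and 0.63) from low levels of 1.44, 1.89 and 2.76 CPM in siCtrl.

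Genes of tRNA splicing, the other task of the ligase, and of RNA end processing were counted together as the tRNA splicing list. Of its 12 genes, 3 were lower and 3 higher after knockdown, where 18.2% and 16.5% of all genes were. None passed with MKC8866. With the replicate block 1 was lower, where 7.05% of all genes were. These counts lie near those shares, and the median log2 fold changes were 0.05 and −0.04. With MKC8866, 1 of the 12 was lower at an unadjusted p under 0.05 in edgeR and none was higher, and DESeq2 called none. TSEN54, a subunit of the tRNA splicing endonuclease, fell from 29.8 to 21.2 CPM after knockdown (log2 fold change −0.49, adjusted p = 7.6e-07 in edgeR), and CLP1, an RNA kinase bound to that endonuclease, fell from 8.04 to 5.88 CPM (−0.45, adjusted p = 0.000887). PYROXD1, an oxidoreductase that protects RTCB from oxidation, rose by 0.22 on the log2 scale (adjusted p = 0.00292 in edgeR). FAM98A, a paralogue of FAM98B, fell by 0.18.

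Of 14 tested genes for proteins that bind, modify or degrade XBP1, 3 were lower and 6 higher after knockdown, where 18.2% and 16.5% of all genes were, so that the lower count lies near its share. With MKC8866, 2 were lower and 1 higher, where 3.11% and 1.36% of all genes were. The replicate block gave 2 higher, where 1262 of 21045 genes were higher in that fit. The median log2 fold changes were 0.14 and 0.00. HM13, the signal peptide peptidase that cleaves the unspliced XBP1 protein, fell in both comparisons (log2 fold changes −0.44 and −0.35, adjusted p = 2.63e-09 and 8.13e-07 in edgeR). DERL1, which acts with it, fell by 0.32 and 0.38. PIK3R1, the p85α subunit that carries XBP1s to the nucleus, rose in both (0.39 and 0.21, adjusted p = 2.17e-08 and 0.00109 in edgeR).

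**Figure D5:**
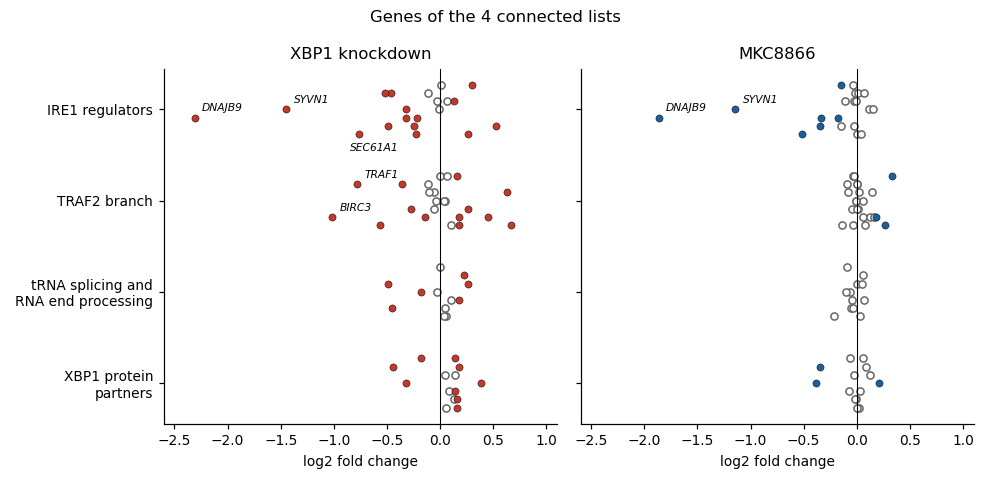
Log2 fold change (horizontal axis) of each tested gene in the 4 connected lists after XBP1 knockdown (left) and with MKC8866 (right). Each point is 1 gene, filled where it passed an adjusted p of 0.05 in edgeR, vertical position within a list only separates the points, and genes beyond 0.7 in size are named. DNAJB9 and SYVN1 lie far to the left in both panels, and BIRC3 does so in the knockdown panel.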

How the data were processed

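LNCaP RNA was sequenced in 16 libraries, and groups and replicate numbers were taken from the sample labels. The authors made stranded libraries for paired-end sequencing and aligned the reads to hg38 with STAR (2.5.2a in the submitters' processing notes). They counted fragments per Ensembl gene with featureCounts (1.5.0), ignoring strand and leaving out multimapping fragments and those on more than 1 gene. The deposited values are raw counts. Symbols were matched for 56948 of 58051 gene IDs through GENCODE v44 and the reference tables, and 0 columns of samples were left unused.

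Here, genes were kept if each group had a library with over 5 counts, and were tested with edgeR 4.0.16 in R 4.3.3 (TMM, quasi-likelihood test, two-sided, Benjamini-Hochberg over all tested genes, called under 0.05), each treatment against its own control, and the difference of responses in all 16 libraries. Levels are CPM with TMM factors from all 16 libraries. Depth was 28713607 to 34509488 counts per library, and the biological coefficient of variation was 5.40% and 4.97% in the knockdown and inhibitor comparisons. The code was tested on simulated data. Log2 CPM for correlations used a pseudocount of 0.5. Splice sites were read from GRCh38 and promoters from RefSeq GRCh38.p14. Python 3.11.15 was used elsewhere.

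Same-numbered libraries deviated together in the inhibitor experiment (r = 0.213, 0.378, 0.104 and 0.222 over genes, all above 0.1), so the blocked value is given where it changes a member's call. For the lists, calls that the block changed are given as counts only. MKC8866 replicate 1 with Vehicle replicate 3 (0.153) and MKC8866 replicate 3 with Vehicle replicate 1 (0.136) also deviated together. Both exceed the value of same-numbered pair 3, so the numbers do not tell libraries 1 and 3 apart. The other differently numbered combinations were negative. In the knockdown experiment same-numbered libraries did not deviate together (0.048, 0.002, 0.047 and 0.070). The alternatives were DESeq2 1.42.0, RLE size factors, no filter, at least 10 counts in every library, the block, all 16 libraries in 1 fit and the removal of each library.

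The members and lists were chosen with earlier results of these data known. The genes named were the 9 members, ERN2, genes whose exons overlap a member's, up to 5 genes per list and comparison with the largest log2 fold change among those called with a mean of at least 1 CPM, and the 3 genes most alike in pattern to XBP1, ERN1 and RTCB. The ratio tests were added after the data were seen. Some genes that the rule or the marker lists name are not reported here.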

Additional observations from a re-analysis of the deposited data

Results flagged for a closer look

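For 4 of the 9 genes, knockdown of XBP1 and MKC8866 gave different responses in the test of the difference itself (edgeR, all 16 libraries). The log2 response to knockdown minus that to MKC8866 was −3.05 for XBP1, −0.40 for ERN1, −0.36 for RTCB and −0.29 for TRAF2. XBP1 was the target of the siRNA, so its difference was set by the design.

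Single libraries stood apart from their group in 2 of the 36 gene and group combinations, by Dixon's ratio above its 95% critical value for 4 libraries, a frequency near the 1 in 20 that chance gives. ERN1 was at 159.0 CPM in Vehicle replicate 2, below the other 3 libraries (ratio 0.849). DDX1 was at 154 CPM in the same library, above the others (ratio 0.865).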

How the results depend on the processing

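The 4 differences between responses (XBP1, ERN1, RTCB and TRAF2) were called in all alternatives run, and so were the falls of XBP1, RTCB, ERN1, TRAF2 and RTCA after knockdown and the rises of ERN1 and XBP1 with MKC8866. The number of the 9 genes lower after knockdown was between 5 and 7, and it changed through DDX1 and ZBTB8OS. No called direction of a gene was reversed in any alternative.

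The number of the 9 genes lower with MKC8866, which was 0, became 1 with DESeq2, with RLE size factors and with at least 10 counts in every library (ZBTB8OS each time), 2 with the replicate block, and 0 to 2 when each library was left out. Among the lists with MKC8866, the TRAF2 branch had 1 lower gene with DESeq2, with at least 10 counts in every library, with all 16 libraries in 1 fit and with the block, where it was 0, and 6 higher genes with the block, where it was 3. The XBP1 partners had 2 higher genes with DESeq2 and with the block (1 to 2 when leaving out each library). The IRE1 regulators had 1 higher gene with the block (0 to 1 when leaving out each library), and the tRNA splicing list had 1 lower gene with the block (0 to 1 when leaving out each library). For the difference of responses, the tRNA splicing list had 2 higher genes with the block (1 to 2 when leaving out each library) and 1 to 2 lower genes when leaving out each library, and the XBP1 partners had 3 higher genes with the block (1 to 3 when leaving out each library). The counts over all genes moved too. With MKC8866, the main fit called 654 lower and 287 higher of 21045 genes. The block called 1484 and 1262 of 21045, and DESeq2 719 and 360 of 14517. Removal of a library gave 527 to 833 lower and 180 to 484 higher. For the difference of responses, the main fit called 2578 lower and 2157 higher of 20357, and the block 3001 and 2641. The cause of the moves in the counts was not tested.

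In the knockdown experiment, where the replicate numbers share only a number, the block left 6 of the 9 genes lower, without DDX1. In the inhibitor experiment the block changed no member's call other than those of ZBTB8OS and RTCA. The lowest count of any of the 9 genes in a library was 459, for ZBTB8OS, so counting error is largest for that gene.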
